A study of Mus musculus with 22 samples.

Results

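The 10 genes described here encode the inhibitors of cyclin-dependent kinases (CDKs) and the retinoblastoma (Rb) family in mouse muscle stem cells. They were chosen by gene family, with no threshold on their values, and are Cdkn1a, Cdkn1b and Cdkn1c of the CIP/KIP family, Cdkn2a, Cdkn2b, Cdkn2c and Cdkn2d of the INK4 family, and Rb1, Rbl1 and Rbl2. They are 10 of the 43430 genes in the deposited files, and all 10 were among the 15084 genes tested. RNA was measured in 22 libraries of stem cells from hindlimb muscle of Pax7-zsgreen mice, in which cells that express the muscle stem cell factor Pax7 carry a green fluorescent protein. The cells were lightly fixed inside the animal before isolation, and SMART-seq v4, a kit for very small amounts of RNA, made the libraries. Uninjured muscle gave 3 libraries labelled ZT16 and 3 labelled ZT4, where zeitgeber time (ZT) runs in hours and starts at lights on. Muscle taken 1 day and 3 days after an injection of cardiotoxin, which comes from snake venom and kills myofibers, gave 4 libraries at ZT16 and 4 at ZT4 each. All mice shared the reporter genotype. The treatment protocol gives ZT4 and ZT16 with the injury, with no hour of collection and no word on whether replicates were separate mice, so p-values measure the spread between these libraries, which may in part be technical. The sort depends on a reporter driven by Pax7, and in such bulk samples fewer cells of a type and less RNA per cell cannot be told apart.

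CDKs bound to cyclins drive cells from rest through DNA synthesis. INK4 proteins bind CDK4 and CDK6 and block their pairing with D-type cyclins, whereas CIP/KIP proteins bind whole cyclin-CDK complexes, chiefly those of CDK2. RB1 and its relatives p107 (from Rbl1) and p130 (from Rbl2) hold E2F transcription factors in check until CDKs phosphorylate them, and p130 is the main E2F-bound member in resting cells. In skeletal muscle, stem cells rest until injury, proliferate for some days, and then leave the cell cycle as they differentiate and fuse, a step at which p21 (from Cdkn1a), p57 (from Cdkn1c) and RB1 are known to act.

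Library totals ranged from 5965957 to 9751536 estimated counts, and levels below are CPM (counts scaled to a common library total) adjusted between libraries, so each is relative to the other RNA of its library. Replicates correlated at r = 0.936 to 0.964 in the uninjured groups and 0.960 to 0.978 in the injured groups, across genes on the log2 CPM scale. Uninjured ZT16 replicates 1 and 3 stood apart: 8 immediate early genes summed to 64710 and 54930 CPM there, against 3013 CPM in replicate 2 and 1067 to 3691 CPM in uninjured ZT4 libraries. The same sum was 9127 to 12870 CPM in 7 of the 8 day 1 libraries, 2495 CPM in day 1 ZT16 replicate 4, and 1611 to 3688 CPM at day 3. Among 8 marker genes of muscle stem cells, 6 were lower and 2 not past the threshold at day 1 against uninjured muscle. At day 3 against uninjured muscle 6 were lower, 1 was higher and 1 was not past it. Of all genes tested, 75.2% were past the threshold at day 1 against uninjured muscle (34.6% higher and 40.6% lower). At day 3 the share was 76.9% (37.9% higher and 39.1% lower), so passing by itself sets no marker apart. Pax7 averaged 321.9 ± 28.3 CPM in uninjured muscle, 58.2 ± 11.3 CPM at day 1 and 22.6 ± 3.12 CPM at day 3 (SD, n = 6, 8 and 8). All 10 macrophage markers were higher at day 1 and at day 3 than in uninjured muscle, and their summed level was 16.4 to 78.7 CPM in uninjured muscle, 1210 to 3614 CPM at day 1 and 262.9 to 881.5 CPM at day 3. Neutrophil markers summed to at most 3.59 CPM in uninjured muscle, 29.1 to 306.3 CPM at day 1 and 6.40 to 16.4 CPM at day 3, with Ly6g at 0 in every day 1 library. Markers of fibro-adipogenic cells summed to 3456 to 4471 CPM in uninjured muscle, 982.6 to 1299 CPM at day 1 and 1553 to 3391 CPM at day 3. The list includes Cd34, and which cells its RNA came from was not tested, so the sum may not measure fibro-adipogenic cells alone. Nor does the sum speak for each marker. At day 1, 2 of the 8 were higher and 5 lower than in uninjured muscle. At day 3, 5 were higher and 3 lower, with a median log2 fold change of 1.38. Mural cell markers summed to 778.1 to 1581 CPM in uninjured muscle, 409.1 to 482.4 CPM at day 1 and 292.8 to 486.2 CPM at day 3. Endothelial markers summed to 99.2 to 187.6 CPM in uninjured muscle, 30.6 to 80.0 CPM at day 1 and 14.1 to 24.3 CPM at day 3. Of these 7 markers, 1 was higher, 1 lower and 5 not past the threshold at day 1 against uninjured muscle (median 0.30), and 4 were lower and 3 not past it at day 3. Lymphoid, Schwann and erythroid markers summed to at most 93.1 CPM in any library. The part of these cells in the levels of the 10 genes was not tested.

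Most of the 10 genes differed between the states, and the pattern was not shared by a whole family. At day 1 against uninjured muscle, 2 of the 10 rose (Cdkn1a and Rbl1), 6 fell (Cdkn1b, Cdkn1c, Cdkn2b, Cdkn2c, Rb1 and Rbl2) and 2 did not pass the test (Cdkn2a and Cdkn2d), by edgeR with a Benjamini-Hochberg adjusted p under 0.05. Of all genes tested, 75.2% were called in this comparison (34.6% higher and 40.6% lower), so a call by itself sets none of the 10 apart. At day 3 against uninjured muscle, 6 rose (Cdkn1a, Cdkn1c, Cdkn2a, Cdkn2b, Rb1 and Rbl1), 3 fell (Cdkn1b, Cdkn2c and Rbl2) and Cdkn2d did not pass, with 76.9% of all genes called (37.9% higher and 39.1% lower). At day 3 against day 1, 7 rose, Cdkn2c fell, and Cdkn1b and Rbl1 did not pass, with 55.4% of all genes called (26.7% higher and 28.7% lower). The median log2 fold change of the 10 genes was −0.82 at day 1 against uninjured muscle, where that of all genes was −0.125. It was 0.79 at day 3 against uninjured muscle and 1.24 at day 3 against day 1, with −0.03 and −0.02 for all genes. CPM ranges did not overlap for 6 of the 10 genes at day 1 against uninjured muscle, 6 at day 3 against uninjured muscle and 5 at day 3 against day 1, where 43.2%, 47.7% and 26.1% of all genes did not overlap. Without uninjured ZT16 replicates 1 and 3, 2 rose and 5 fell at day 1 against uninjured muscle, with Cdkn2b no longer past the threshold. At day 3 against uninjured muscle the same omission left 6 higher and 3 lower, with Cdkn2d in place of Cdkn1c among the higher.

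**Figure D1:**
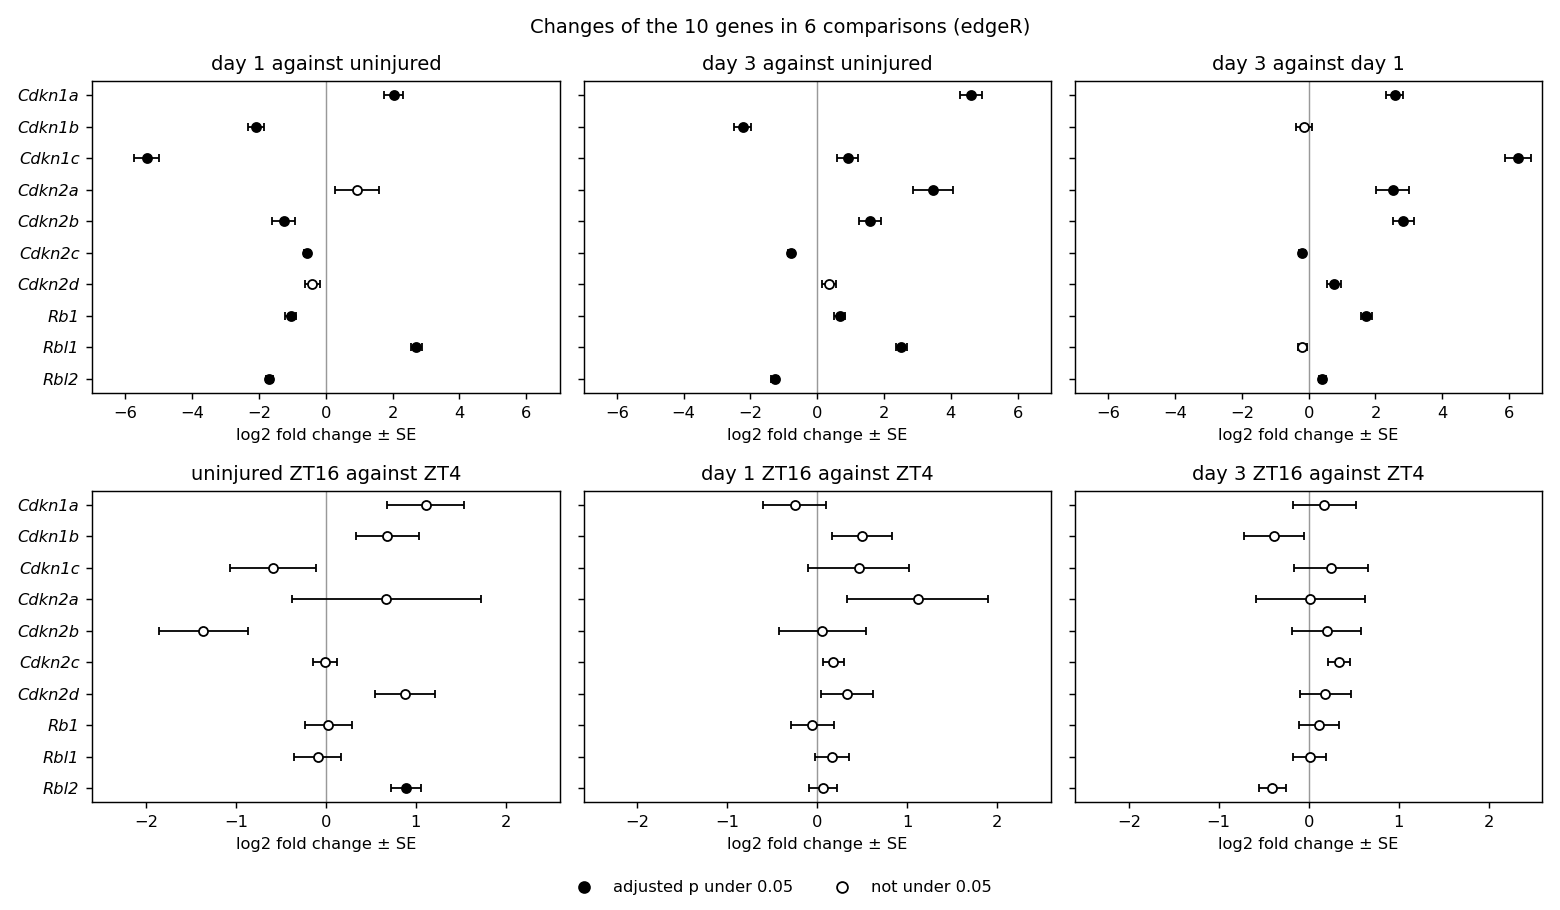
Log2 fold changes of the 10 genes (horizontal axis, ± SE from edgeR) in 3 comparisons between states (top row) and 3 comparisons of ZT16 with ZT4 (bottom row, narrower axis). Filled points passed an adjusted p of 0.05: 8, 9 and 8 of the 10 genes between states, and Rbl2 in uninjured muscle between times.

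Cdkn1a, which encodes p21, the CIP/KIP inhibitor best known as a p53 target and as a partner of cell cycle exit in muscle, lies at chr17:29090976-29100727 on GRCm38. Its lowest, median and highest levels were 15.1, 33.4 and 96.1 CPM in 6 uninjured libraries, 121.2, 165.3 and 213.2 CPM in 8 libraries of day 1, and 897.7, 959.5 and 1173 CPM in 8 libraries of day 3. The 3 states did not overlap at any library. Cdkn1a rose at day 1 against uninjured muscle (log2 fold change 2.03 ± 0.29, SE, edgeR adjusted p = 6.45e-06) and again at day 3 against day 1 (2.57 ± 0.26, adjusted p = 2.07e-07). Its increase at day 1 stood beside higher levels of the genes of DNA synthesis, which are known to be expressed in cycling cells. Without the uninjured ZT16 replicates 1 and 3, in which Cdkn1a was at 96.1 and 66.3 CPM, the change at day 1 against uninjured muscle was 3.11 ± 0.26. Day 1 ZT16 replicate 4, lowest of the day 1 libraries in immediate early genes, was also lowest in Cdkn1a, Cdkn2d, Rb1 and Rbl2, at 121.2, 21.3, 8.17 and 17.6 CPM. Without it the changes at day 1 against uninjured muscle were 2.08 ± 0.30 for Cdkn1a, −0.29 ± 0.18 for Cdkn2d, −0.998 ± 0.18 for Rb1 and −1.62 ± 0.10 for Rbl2, each on the same side of the threshold as with it. The part of the immediate early state in these levels was not tested further.

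Of 18 genes of the p53 network, 7 rose and 4 fell at day 1 against uninjured muscle, with a median log2 fold change of 0.07, and 12 rose and 5 fell at day 3 against uninjured muscle, with a median of 0.62. At day 3 against day 1, 8 of the 18 rose and 3 fell, with a median of 0.35. Among all genes tested, 75.2%, 76.9% and 55.4% were called in these comparisons, in the same order. The p53 targets Ccng1 (1.27 ± 0.08), Phlda3 (0.55 ± 0.08) and Eda2r (1.13 ± 0.16) and the cell death gene Bax (0.46 ± 0.08) rose at day 3 against day 1. Other genes of the network had lower means at day 3 than at day 1. Btg2 averaged 126.9 against 853.8 CPM, Plk2 264.0 against 374.7 CPM and Aen 103.7 against 134.4 CPM. Sesn1, also a p53 target, fell at day 1 against uninjured muscle (−2.79 ± 0.12), to 31.1 ± 6.42 CPM at day 1, against 215.7 ± 12.34 CPM in uninjured muscle. For Trp53 itself the log2 fold change at day 3 against day 1 was −0.00 ± 0.07 (adjusted p = 0.961).

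The 3 annotated transcripts of Cdkn1a have coding sequences of the same length, 477 bases, and differ in their start. Cdkn1a-202, which starts farthest upstream, made up 34.3 ± 24.0% of the gene's TPM (a level per transcript length, on a common total per library) in uninjured muscle, 61.3 ± 5.19% at day 1 and 64.1 ± 1.76% at day 3 (SD, n = 6, 8 and 8). Its share in uninjured libraries ran between 10.4% and 73.6%, which overlaps both injured days. Within uninjured muscle the times did not overlap, with shares of 10.4, 21.8 and 18.3% in ZT16 libraries, against 52.1, 73.6 and 29.5% in ZT4 libraries. The difference was 26.99 points at day 1 against uninjured muscle (exact two-sided permutation p = 0.018, 0.0432 after adjustment over 12 tests of transcript shares) and 29.9 points at day 3 against uninjured muscle (exact p = 0.00866, adjusted p = 0.026). Within ZT16 alone the differences were 44.1 points at day 1 and 47.4 points at day 3 (exact permutation test, adjusted p = 0.137 each), and within ZT4 alone they were 9.86 points (adjusted p = 0.652) and 12.4 points (adjusted p = 0.515). Without the uninjured ZT16 replicates 1 and 3 the differences were 17.0 points (exact permutation test, adjusted p = 0.194) and 19.9 points (adjusted p = 0.158). The call at day 1 was also lost when any single day 1 library, any single uninjured ZT16 library or uninjured ZT4 replicate 3 was left out (exact permutation test, adjusted p up to 0.101). The call at day 3 was lost without any single uninjured ZT16 library or without uninjured ZT4 replicate 3 (adjusted p = 0.0606 each).

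Cdkn1b, which encodes p27, the CIP/KIP inhibitor associated with resting cells, lies at chr6:134920401-134925513. Cdkn1b had lowest, median and highest levels of 16.7, 31.0 and 44.6 CPM in uninjured muscle, 3.42, 7.41 and 11.7 CPM at day 1, and 3.17, 6.70 and 9.89 CPM at day 3. Every library of both injured days was below every uninjured library, and the 2 injured days overlapped. Cdkn1b fell at day 1 against uninjured muscle (−2.09 ± 0.24, edgeR adjusted p = 2.94e-08) and at day 3 against uninjured muscle (−2.24 ± 0.24, adjusted p = 8.83e-09). The log2 fold change at day 3 against day 1 was −0.15 ± 0.24 (adjusted p = 0.627). Of the 3 CIP/KIP genes, Cdkn1b alone fell at both days.

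Genes known to control p27 moved in both directions. Of 10 such genes, 4 rose and 3 fell at day 1 against uninjured muscle, with a median log2 fold change of 0.07, and 5 rose and 3 fell at day 3 against uninjured muscle, with a median of 0.22. Calls were made for 75.2% and 76.9% of all genes in these comparisons, so the counts do not set this list apart. Skp2, the ubiquitin ligase subunit that marks p27 for degradation, rose to 84.7 ± 6.30 CPM at day 1 and 141.7 ± 9.96 CPM at day 3, against 36.9 ± 16.3 CPM in uninjured muscle. Cks1b, the cofactor that Skp2 needs to bind p27, rose by 2.03 ± 0.10 at day 1 and 3.06 ± 0.10 at day 3 against uninjured muscle. Foxo1 and Foxo3, transcription factors that can induce Cdkn1b, fell by 2.32 ± 0.12 and 1.74 ± 0.21 on the log2 scale at day 1 against uninjured muscle, and by 4.11 ± 0.13 and 2.51 ± 0.22 at day 3. The FoxO word GTAAACA, searched on both strands, was in none of the 11 promoter windows of 8 of the 10 genes in the RefSeq table, and in 3.65% of all 32851 windows of the same length.

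Cdkn1c, which encodes p57, an imprinted CIP/KIP inhibitor that is expressed from the maternal allele, lies at chr7:143458339-143461050. Cdkn1c had lowest, median and highest levels of 94.9, 284.6 and 591.9 CPM in uninjured muscle, 3.11, 7.29 and 12.2 CPM at day 1, and 372.9, 581.4 and 741.3 CPM at day 3. Day 1 lay far below both other states, and day 3 overlapped the upper part of the uninjured range. Cdkn1c fell at day 1 against uninjured muscle (−5.37 ± 0.38, edgeR adjusted p = 8.05e-10) and rose at day 3 against day 1 (6.27 ± 0.38, adjusted p = 3.73e-10), the largest changes among the 10 genes in these comparisons. It was higher at day 3 than in uninjured muscle by 0.91 ± 0.32 (adjusted p = 0.0165). That call was lost in the ZT4 groups alone (0.49 ± 0.45, adjusted p = 0.346) and without uninjured ZT16 replicates 1 and 3 (0.98 ± 0.42, adjusted p = 0.0506).

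The uninjured libraries spread widely for Cdkn1c, and the muscle differentiation gene Myog spread with it. Cdkn1c was at 330.0, 239.2 and 155.0 CPM in uninjured ZT16 replicates 1, 2 and 3, and at 591.9, 397.6 and 94.9 CPM in ZT4 replicates 1, 2 and 3. Myog was at 372.3, 219.5 and 172.4 CPM in the same ZT16 libraries and at 533.2, 323.0 and 96.6 CPM in the ZT4 libraries. The library highest in Cdkn1c was also highest in Myog, and the lowest in Cdkn1c was lowest in Myog. At day 1 Myog was at 3.17 to 26.1 CPM, and at day 3 at 1117 to 2223 CPM.

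Of 14 genes of muscle differentiation, 1 rose and 11 fell at day 1 against uninjured muscle, with a median log2 fold change of −1.34, and 12 rose and 1 fell at day 3 against uninjured muscle, with a median of 2.34. In these comparisons 75.2% and 76.9% of all genes tested were called. Mymk, which encodes the fusion protein myomaker, averaged 42.5 ± 22.9 CPM in uninjured muscle, 0.605 ± 0.53 CPM at day 1 and 303.7 ± 90.1 CPM at day 3 (SD, n = 6, 8 and 8). Ckm, the creatine kinase gene of mature muscle, fell at both days against uninjured muscle (−1.06 ± 0.33 at day 1 and −1.92 ± 0.34 at day 3). Among 6 tested neighbours in the imprinted domain of Cdkn1c, 2 rose and 1 fell at day 1 against uninjured muscle, and the one that fell was Cd81 (−1.33 ± 0.07). Kcnq1ot1, the noncoding RNA of that domain, averaged 89.3 ± 20.3 CPM in uninjured muscle, 77.4 ± 17.0 CPM at day 1 and 53.3 ± 8.68 CPM at day 3.

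**Figure D2:**
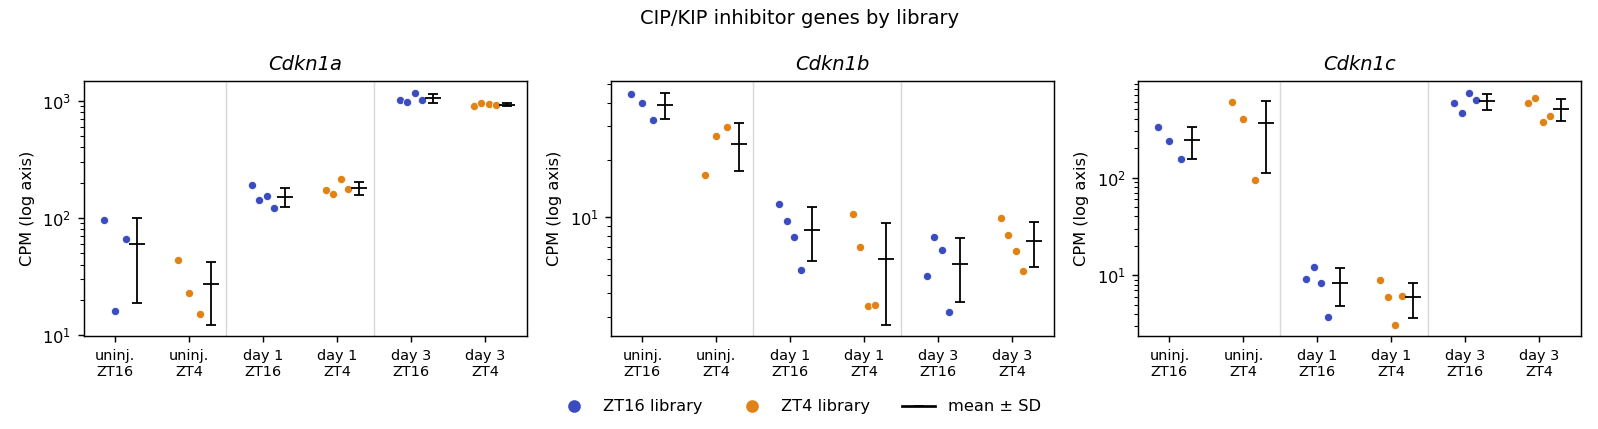
Levels of Cdkn1a, Cdkn1b and Cdkn1c in CPM on a log axis, by group of state and time. Each point is 1 library and black bars are the mean ± SD; Cdkn1c at day 1 (3.11 to 12.2 CPM) and Cdkn1a at day 3 (897.7 to 1173 CPM) stand clear of the other states.

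Per length, the 3 CIP/KIP genes traded places. Their summed protein-coding TPM was 316.4 ± 163.4 in uninjured muscle, 268.3 ± 51.6 at day 1 and 1884 ± 205.0 at day 3. Cdkn1c made up 74.2 ± 12.6% of that sum in uninjured muscle, 2.06 ± 1.00% at day 1 and 21.6 ± 3.13% at day 3. Cdkn1a made up 19.8 ± 11.5% in uninjured muscle, 96.7 ± 1.42% at day 1 and 78.2 ± 3.13% at day 3. Cdkn1b made up 6.07 ± 3.33% in uninjured muscle, 1.21 ± 0.49% at day 1 and 0.161 ± 0.057% at day 3. The sum at day 1 thus overlapped that of uninjured muscle, while its main transcript was Cdkn1c in uninjured muscle and Cdkn1a at day 1.

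Among the INK4 genes, Cdkn2c, which encodes p18, lies at chr4:109660876-109667189 on the minus strand. Its lowest, median and highest levels were 54.4, 64.4 and 71.8 CPM in uninjured muscle, 36.5, 43.6 and 49.3 CPM at day 1, and 29.4, 35.8 and 47.4 CPM at day 3. Every injured library was below every uninjured library. Cdkn2c fell at day 1 against uninjured muscle (−0.58 ± 0.09, edgeR adjusted p = 2.66e-06) and at day 3 against uninjured muscle (−0.78 ± 0.09, adjusted p = 2.02e-08), small changes with little spread. At day 3 against day 1 it fell by 0.20 ± 0.08 on the log2 scale (adjusted p = 0.042), a call held by 13 of 33 alternatives, with adjusted p from 0.00914 to 0.433.

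Beneath the small change of Cdkn2c, its 2 transcripts differed in opposite directions. Cdkn2c-201 has 2 exons and starts at 109665372, whereas Cdkn2c-202 has 3 exons and starts upstream at 109667189, and both hold the same coding sequence of 504 bases. Cdkn2c-201 has 215 exonic bases of its own and Cdkn2c-202 has 1580, so reads can tell them apart only there. The RefSeq windows of both starts (GRCm38.p6, 250 bases before to 50 after the start) are shown because the transcripts differ by start. The RefSeq start of the upstream window lies within the span of Cdkn2c-202, downstream of the start that GENCODE gives. Neither window held any of the E2F words TTTCCCGC, TTTCGCGC, TTTGCCGC and TTTGGCGC on either strand, so both are in lower case. Their GC contents were 73.3% upstream and 44.0% downstream.
Cdkn2c upstream, chr4:109666707-109667006, minus strand: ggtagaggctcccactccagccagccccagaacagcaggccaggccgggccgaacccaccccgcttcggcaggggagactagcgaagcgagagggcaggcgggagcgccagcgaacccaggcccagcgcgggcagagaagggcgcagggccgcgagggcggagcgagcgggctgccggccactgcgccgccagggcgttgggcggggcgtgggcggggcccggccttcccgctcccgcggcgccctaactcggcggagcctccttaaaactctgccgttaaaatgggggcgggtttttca
Cdkn2c downstream, chr4:109665323-109665622, minus strand: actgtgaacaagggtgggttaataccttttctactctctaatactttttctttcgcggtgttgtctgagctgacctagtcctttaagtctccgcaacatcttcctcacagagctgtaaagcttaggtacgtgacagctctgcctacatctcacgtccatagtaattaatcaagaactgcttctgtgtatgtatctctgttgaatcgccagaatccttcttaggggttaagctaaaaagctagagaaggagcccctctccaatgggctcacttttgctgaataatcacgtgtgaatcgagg

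The downstream transcript Cdkn2c-201 averaged 52.4 ± 10.97 CPM in uninjured muscle, 16.1 ± 2.66 CPM at day 1 and 9.61 ± 2.43 CPM at day 3 (SD, n = 6, 8 and 8). The upstream transcript Cdkn2c-202 averaged 11.7 ± 5.99 CPM in uninjured muscle, 26.99 ± 4.09 CPM at day 1 and 28.0 ± 4.97 CPM at day 3. The level of the downstream transcript was thus higher in uninjured muscle and that of the upstream transcript was higher after injury. The share of Cdkn2c-202 in the gene's TPM had a lowest, median and highest value of 2.29, 8.70 and 15.9% in uninjured muscle, 31.9, 40.1 and 51.0% at day 1, and 47.4, 51.9 and 67.0% at day 3. No injured library overlapped an uninjured one, and the 2 injured days overlapped at their edges. The share was higher by 31.1 points at day 1 against uninjured muscle and by 45.4 points at day 3 against uninjured muscle (exact two-sided permutation p = 0.000666 each, the smallest that 8 against 6 libraries allow, and 0.00266 after adjustment over 12 tests of transcript shares). It was higher by 14.3 points at day 3 against day 1 (exact permutation p = 0.000622, adjusted p = 0.00266). These tests were chosen after the values had been seen. Within ZT16 the differences were 34.0, 50.8 and 16.8 points for the same 3 comparisons, and within ZT4 they were 28.2, 40.0 and 11.8 points. Groups of 3 or 4 libraries cannot reach an adjusted p under 0.05 there, and each gave 0.137 in the exact permutation test. The shares are estimates that apportion reads between overlapping transcripts.

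**Figure D3:**
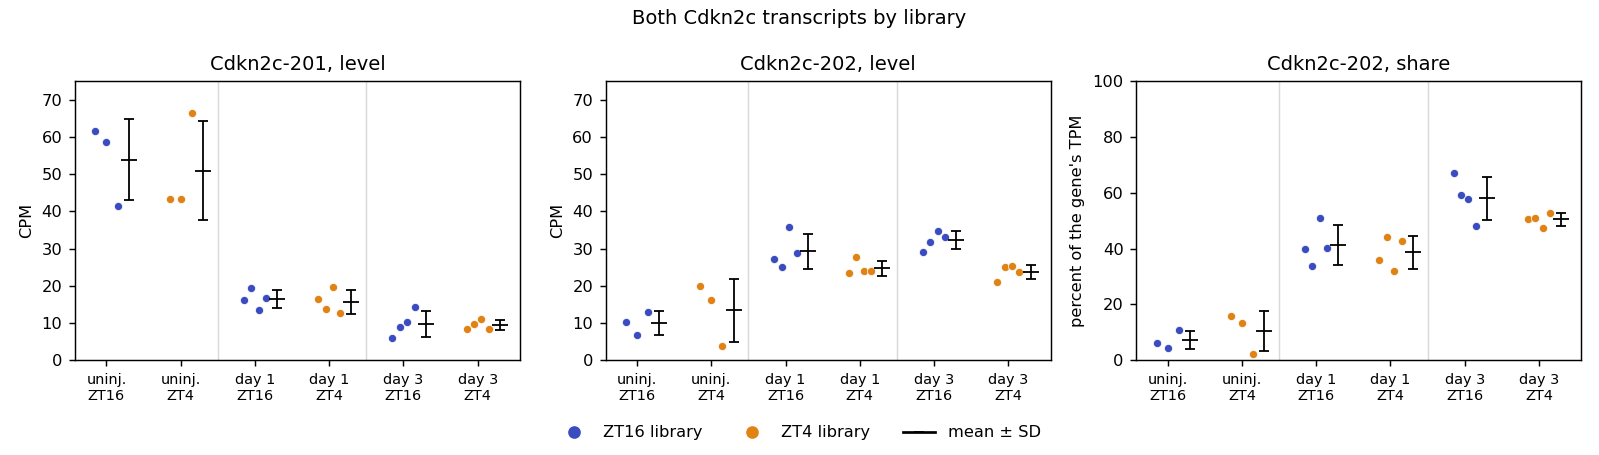
Levels in CPM of Cdkn2c-201 (left) and Cdkn2c-202 (middle) and the share of Cdkn2c-202 in the gene's TPM in percent (right), by group of state and time. Each point is 1 library and black bars are the mean ± SD; the share is at most 15.9% in uninjured libraries and at least 31.9% in injured ones.

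Cdkn2d, which encodes p19, the other INK4 inhibitor with a high level in these cells, lies at chr9:21288410-21291407. Cdkn2d had lowest, median and highest levels of 28.2, 49.6 and 91.7 CPM in uninjured muscle, 21.3, 37.1 and 58.7 CPM at day 1, and 59.8, 70.2 and 78.2 CPM at day 3. The uninjured range held most values of both injured days, while day 3 lay above day 1. Cdkn2d rose at day 3 against day 1 (0.76 ± 0.20, edgeR adjusted p = 0.00349), a call lost in the ZT16 groups alone (0.69 ± 0.28, adjusted p = 0.0621). Against uninjured muscle the log2 fold change was −0.40 ± 0.22 at day 1 (adjusted p = 0.101) and 0.36 ± 0.22 at day 3 (adjusted p = 0.141). Without the uninjured ZT16 replicates 1 and 3, where Cdkn2d was at 91.7 and 89.3 CPM, it was 0.20 ± 0.24 at day 1 (adjusted p = 0.486) and 0.90 ± 0.25 at day 3 (adjusted p = 0.00415).

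Cdkn2b, which encodes p15, an INK4 inhibitor induced by TGF-beta in several cell types, lies at chr4:89306299-89311039 beside Cdkn2a. Cdkn2b had lowest, median and highest levels of 1.57, 3.27 and 12.02 CPM in uninjured muscle, 0.762, 1.34 and 3.19 CPM at day 1, and 9.71, 11.8 and 15.03 CPM at day 3. Day 3 lay above day 1 without overlap, and the uninjured range reached both because ZT4 replicate 3 was at 12.02 CPM and the other 5 libraries at 1.57 to 3.71 CPM. Cdkn2b rose at day 3 against day 1 (2.83 ± 0.31, edgeR adjusted p = 4.38e-08) and at day 3 against uninjured muscle (1.58 ± 0.32, adjusted p = 9.91e-05). In the ZT4 groups alone, day 3 against uninjured muscle gave 0.79 ± 0.43 (adjusted p = 0.109). Cdkn2b fell at day 1 against uninjured muscle (−1.25 ± 0.34, adjusted p = 0.00214). In the ZT16 groups alone this was −0.54 ± 0.50 (adjusted p = 0.344), and without uninjured ZT16 replicates 1 and 3 it was −0.82 ± 0.46 (adjusted p = 0.123). Without uninjured ZT4 replicate 3 it was −0.83 ± 0.31 (adjusted p = 0.02).

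Cdkn2a, which encodes the INK4 inhibitor p16 from its downstream start and, in another reading frame, the p53 activator ARF from its upstream start, lies at chr4:89274471-89294653 on the minus strand. It had the fewest counts of the 10 genes, with a lowest, median and highest level of 0, 0.204 and 0.430 CPM in uninjured muscle, 0.138, 0.215 and 1.52 CPM at day 1, and 1.23, 2.62 and 3.90 CPM at day 3. Day 3 lay above uninjured muscle without overlap. Cdkn2a rose at day 3 against uninjured muscle (3.45 ± 0.60, edgeR adjusted p = 1.35e-05) and against day 1 (2.52 ± 0.50, adjusted p = 0.000136), while day 1 against uninjured muscle gave 0.94 ± 0.66 (adjusted p = 0.2).

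The counts of Cdkn2a at day 3 were assigned mainly to Cdkn2a-202, the transcript of the upstream ARF start at 89294653. It had 12 to 31.2 estimated counts per library at day 3, 0 to 10.45 at day 1 and 0 to 3.00 in uninjured muscle. Cdkn2a-201, which starts at 89282192 and encodes p16, had 0 to 3.77 estimated counts at day 3, 0 to 1.55 at day 1 and 0 to 1.00 in uninjured muscle. The p16 transcript was therefore not detectable above a few counts at this depth in any state, and Cdkn2a-202 made up 93.3 ± 8.64% of the gene's TPM at day 3 (SD, n = 8). The RefSeq windows of both starts are printed to show how they differ. The upstream window holds the E2F word TTTCCCGC, in capitals, 99 bases before the RefSeq start, and the downstream window holds none of the 4 E2F words. That RefSeq start lies downstream of the GENCODE start of Cdkn2a-202 given above. An E2F word was in 2.26% of all 32851 windows.
Cdkn2a upstream (ARF), chr4:89294570-89294869, minus strand: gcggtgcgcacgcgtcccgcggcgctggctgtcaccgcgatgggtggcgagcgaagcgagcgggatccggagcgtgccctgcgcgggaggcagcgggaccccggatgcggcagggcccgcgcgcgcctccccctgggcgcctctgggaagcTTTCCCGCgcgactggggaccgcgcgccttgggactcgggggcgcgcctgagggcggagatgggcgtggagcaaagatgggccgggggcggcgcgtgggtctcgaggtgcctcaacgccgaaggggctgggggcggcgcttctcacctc
Cdkn2a downstream (p16), chr4:89282143-89282442, minus strand: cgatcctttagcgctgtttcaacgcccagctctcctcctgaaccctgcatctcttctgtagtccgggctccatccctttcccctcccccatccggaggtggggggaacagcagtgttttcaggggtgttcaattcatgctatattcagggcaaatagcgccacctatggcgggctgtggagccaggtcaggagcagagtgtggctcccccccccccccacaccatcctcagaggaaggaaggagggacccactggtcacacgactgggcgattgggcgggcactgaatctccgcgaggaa

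Of 19 genes known to control the Cdkn2a and Cdkn2b locus, mainly Polycomb subunits, 9 rose and 6 fell at day 1 against uninjured muscle, with a median log2 fold change of 0.33, and 7 rose and 9 fell at day 3 against uninjured muscle, with a median of −0.12. Over all genes tested, 75.2% and 76.9% were called in these comparisons. The Polycomb methyltransferase gene Ezh2 averaged 25.3 ± 5.85 CPM in uninjured muscle, 90.4 ± 11.4 CPM at day 1 and 93.7 ± 9.57 CPM at day 3. Its relative Ezh1 averaged 185.2 ± 38.9 CPM in uninjured muscle, 37.4 ± 7.99 CPM at day 1 and 26.8 ± 5.75 CPM at day 3. Ring1 and Cbx7, subunits of the other Polycomb complex, fell at day 1 against uninjured muscle by 2.06 ± 0.14 and 2.00 ± 0.13 on the log2 scale. Ets1 (2.11 ± 0.10) rose at day 1 against uninjured muscle.

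**Figure D4:**
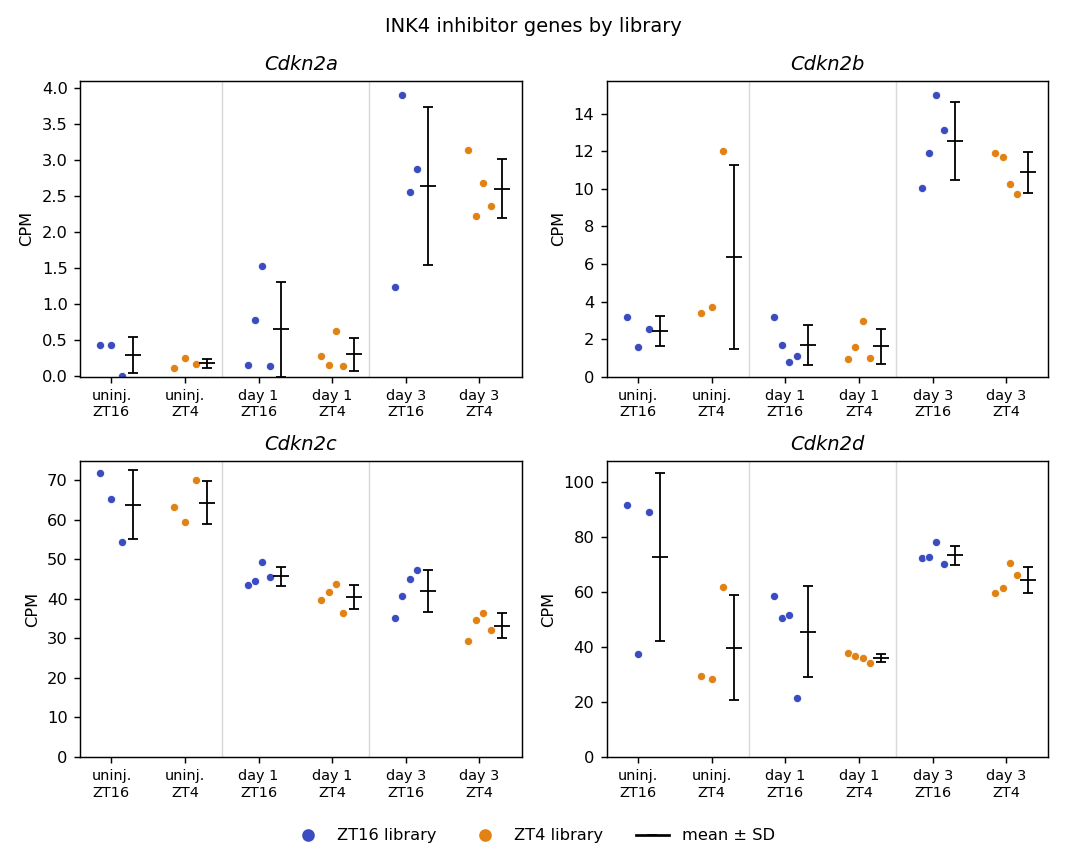
Levels of the 4 INK4 genes in CPM on linear axes, by group of state and time. Each point is 1 library and black bars are the mean ± SD; Cdkn2a and Cdkn2b are highest at day 3, Cdkn2c is highest in uninjured muscle, and Cdkn2d spreads widely in uninjured muscle.

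Summed over the INK4 family, protein-coding TPM was 160.8 ± 43.7 in uninjured muscle, 88.8 ± 18.4 at day 1 and 126.1 ± 9.60 at day 3. Cdkn2c and Cdkn2d made up most of it in every state. The share of Cdkn2c was 54.9 ± 11.8% in uninjured muscle, 43.4 ± 7.65% at day 1 and 22.7 ± 2.25% at day 3. The share of Cdkn2d was 41.8 ± 12.5% in uninjured muscle, 53.7 ± 7.47% at day 1 and 63.8 ± 3.08% at day 3. Cdkn2b reached 9.75 ± 1.10% and Cdkn2a 3.73 ± 1.07% at day 3. Mean TPM of Cdkn2c was 84.4 in uninjured muscle, 37.5 at day 1 and 28.7 at day 3, against 64.1, 43.1 and 37.6 CPM. The TPM of Cdkn2c depends on how reads were apportioned between its transcripts of 1106 and 2471 bases, and the family sum and shares depend on it too.

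Rb1, which encodes the retinoblastoma protein, lies at chr14:73183673-73325822 on the minus strand. Its lowest, median and highest levels were 14.3, 25.2 and 29.2 CPM in uninjured muscle, 8.17, 10.9 and 14.98 CPM at day 1, and 27.3, 37.5 and 48.3 CPM at day 3. Day 3 lay above day 1 without overlap, and the uninjured libraries lay between them with an overlap at each end. Rb1 fell at day 1 against uninjured muscle (−1.06 ± 0.18, edgeR adjusted p = 8.52e-06), rose at day 3 against day 1 (1.72 ± 0.17, adjusted p = 3.84e-09) and was higher at day 3 than in uninjured muscle (0.67 ± 0.17, adjusted p = 0.0012). Of its 6 transcripts, Rb1-201 encodes the protein, and 2 short noncoding ones overlap exons of other genes on the opposite strand, Rb1-206 those of Lpar6 over all 408 of its bases and Rb1-202 those of Rcbtb2 over 383 of 411. Whether the libraries kept strand is not given in the sources used here. From protein-coding transcripts alone, the log2 fold changes of Rb1 were −1.002 ± 0.19 at day 1 and 0.83 ± 0.19 at day 3 against uninjured muscle, and 1.83 ± 0.18 at day 3 against day 1.

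Rbl1, which encodes p107, the Rb relative whose gene is itself an E2F target, lies at chr2:157145893-157204534 on the minus strand. Its lowest, median and highest levels were 3.85, 7.56 and 12.4 CPM in uninjured muscle, 45.3, 50.6 and 62.0 CPM at day 1, and 34.6, 45.3 and 53.01 CPM at day 3. Every injured library was above every uninjured library, and the 2 injured days overlapped. Rbl1 rose at day 1 against uninjured muscle (2.70 ± 0.17, edgeR adjusted p = 3.19e-13) and at day 3 against uninjured muscle (2.52 ± 0.17, adjusted p = 8.01e-13), while day 3 against day 1 gave −0.19 ± 0.13 (adjusted p = 0.237). The retained-intron transcript Rbl1-202 held 61.1 ± 25.1% of the gene's TPM in uninjured muscle, 63.6 ± 8.51% at day 1 and 70.8 ± 11.2% at day 3. From the protein-coding transcript alone, Rbl1 rose by 2.99 ± 0.26 at day 1 and 2.68 ± 0.26 at day 3 against uninjured muscle. Its RefSeq window (GRCm38.p6) is shown because it holds the E2F word TTTCGCGC, in capitals, 18 bases before the start.
Rbl1, chr2:157204485-157204784, minus strand: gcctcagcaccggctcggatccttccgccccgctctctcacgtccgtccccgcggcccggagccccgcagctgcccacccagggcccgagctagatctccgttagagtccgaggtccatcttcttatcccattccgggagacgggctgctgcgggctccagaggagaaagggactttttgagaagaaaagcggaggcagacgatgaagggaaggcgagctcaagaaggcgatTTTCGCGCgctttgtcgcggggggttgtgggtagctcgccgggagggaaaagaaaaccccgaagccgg

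Rbl2, which encodes p130, the Rb relative of resting cells, lies at chr8:91070057-91123844. Rbl2 had lowest, median and highest levels of 58.8, 82.0 and 117.6 CPM in uninjured muscle, 17.6, 26.0 and 30.4 CPM at day 1, and 22.6, 33.5 and 43.6 CPM at day 3. Every injured library was below every uninjured library. Rbl2 fell at day 1 (−1.69 ± 0.11, edgeR adjusted p = 1.65e-12) and at day 3 (−1.28 ± 0.11, adjusted p = 1.84e-10) against uninjured muscle. It was higher at day 3 than at day 1 (0.41 ± 0.11, adjusted p = 0.00239), although in the ZT16 groups alone that difference was 0.18 ± 0.15 (adjusted p = 0.382). Rbl2 shares 693 exonic bases with Aktip, a gene on the opposite strand that averaged 60.8 CPM. From protein-coding transcripts alone, Rbl2 fell by 1.77 at day 1 and 1.35 at day 3 against uninjured muscle on the log2 scale.

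**Figure D5:**
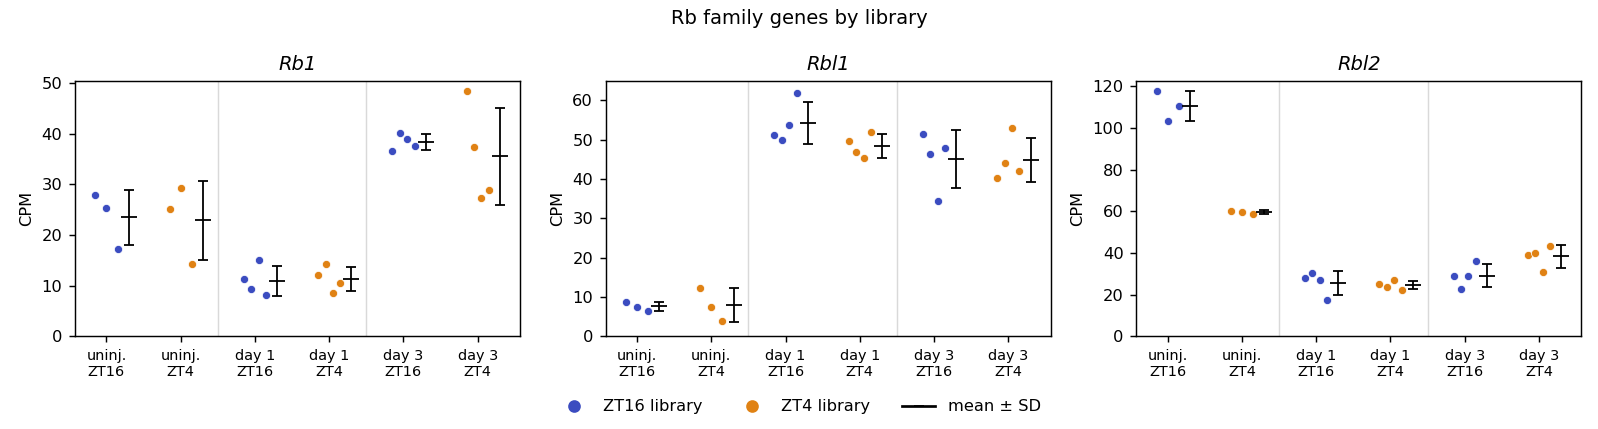
Levels of Rb1, Rbl1 and Rbl2 in CPM on linear axes, by group of state and time. Each point is 1 library and black bars are the mean ± SD; Rbl1 is at most 12.4 CPM in uninjured libraries and at least 34.6 CPM in injured ones, and Rbl2 separates uninjured ZT16 from ZT4.

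Of the summed protein-coding TPM of the Rb family, Rbl2 made up 77.6 ± 7.84% in uninjured muscle, 42.4 ± 6.34% at day 1 and 37.2 ± 6.89% at day 3. Rbl1 made up 2.51 ± 1.32% in uninjured muscle, 39.5 ± 6.25% at day 1 and 20.8 ± 4.67% at day 3. Rb1 made up 19.9 ± 7.42% in uninjured muscle, 18.1 ± 3.65% at day 1 and 42.1 ± 5.28% at day 3. By protein-coding TPM the leading member was thus Rbl2 in uninjured muscle, Rbl2 and Rbl1 with overlapping ranges at day 1, and Rb1 and Rbl2 with overlapping ranges at day 3. The order differed over all annotated transcripts. There Rb1, Rbl2 and Rbl1 averaged 34.3, 29.7 and 4.02 TPM in uninjured muscle. The means were 13.1, 9.03 and 22.4 TPM at day 1 and 25.7, 12.5 and 20.7 TPM at day 3. The shares thus depend on how reads are apportioned between protein-coding and other transcripts of each gene.

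The kinases, cyclins and E2F genes on which these proteins act were described beside them. Of 11 cyclin and CDK genes, 10 rose and Ccnd3 fell at both days against uninjured muscle. Their median log2 fold changes were 2.88 at day 1 and 3.70 at day 3. Of all genes tested, 75.2% were called at day 1 (34.6% higher) and 76.9% at day 3 (37.9% higher). Cdk6 averaged 6.44 ± 2.17 CPM in uninjured muscle, 84.1 ± 14.8 CPM at day 1 and 84.4 ± 4.85 CPM at day 3. Cdk4 averaged 329.1 ± 56.7 CPM in uninjured muscle, 654.8 ± 49.5 CPM at day 1 and 727.6 ± 50.5 CPM at day 3. INK4 proteins keep D-type cyclins from CDK4. Of these, Ccnd3 averaged 688.7 ± 117.4 CPM in uninjured muscle, 466.1 ± 35.8 CPM at day 1 and 403.8 ± 33.7 CPM at day 3. Ccnd1 was at a lower level in each state, with 82.2 ± 42.6 CPM in uninjured muscle, 366.4 ± 50.0 CPM at day 1 and 219.9 ± 30.6 CPM at day 3. Ccnd1 was lower at day 3 than at day 1 (−0.73 ± 0.14, edgeR adjusted p = 0.000103), whereas the CDK2 partner Ccne1 was higher (1.049 ± 0.14, adjusted p = 1.42e-06).

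Of 18 E2F targets of DNA replication, all rose at both days against uninjured muscle, with median log2 fold changes of 3.10 at day 1 and 2.73 at day 3. At day 3 against day 1, 3 rose (Rrm1, Rrm2 and Tk1), 12 fell and 3 did not pass, with a median of −0.59. Mcm3, a subunit of the replicative helicase, averaged 43.7 ± 10.5 CPM in uninjured muscle, 583.9 ± 45.3 CPM at day 1 and 331.2 ± 22.2 CPM at day 3. Among 16 E2F, DP and DREAM complex genes, 11 rose and 4 fell at day 1 against uninjured muscle and 10 rose and 4 fell at day 3. Between day 3 and day 1, 6 of the 16 rose at day 3, 4 fell and 6 did not pass. The shares of all genes called in these comparisons were 75.2%, 76.9% and 55.4%. Those that rose include E2f8, a repressor (1.88 ± 0.13), and E2f2, an activator (1.31 ± 0.15). Those that fell include E2f1, also an activator (−1.12 ± 0.14), and E2f6 (−0.89 ± 0.07) and E2f5 (−1.31 ± 0.14), both repressors, so neither class moved as a whole.

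Per length, from protein-coding transcripts, the order of the 10 genes differed between states. In uninjured muscle Cdkn1c led with 244.0 ± 151.1 TPM, ahead of Cdkn2c (84.4 ± 11.95), Cdkn2d (71.2 ± 39.0) and Cdkn1a (57.5 ± 37.8 TPM), and each of these overlapped its neighbour in range. At day 1 Cdkn1a led with 259.8 ± 52.0 TPM and overlapped no other, ahead of Cdkn2d (48.7 ± 15.4) and Cdkn2c (37.5 ± 3.66 TPM), which overlapped each other. The other 7 genes were each under 10 TPM there, although over all transcripts Rbl1 averaged 22.4 and Rb1 13.1 TPM. At day 3 Cdkn1a (1470 ± 129.2 TPM), Cdkn1c (411.4 ± 93.2), Cdkn2d (80.5 ± 6.25) and Cdkn2c (28.7 ± 4.59 TPM) followed each other with no overlap between neighbours. The place of Cdkn2c in each state depends on how its reads were apportioned between transcripts of unlike length. Cdkn1b had the lowest mean of the 10 at day 3, with 2.98 ± 0.92 TPM, and its range overlapped that of Cdkn2a (4.67 ± 1.20 TPM).

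Between ZT16 and ZT4 in uninjured muscle, Rbl2 was the gene of the 10 that passed the test, where 17.7% of all genes were called (8.53% higher and 9.12% lower). Rbl2 was at 117.6, 103.5 and 110.6 CPM in ZT16 libraries, against 60.4, 59.8 and 58.8 CPM in ZT4 libraries. The groups did not overlap, and the spread within each was small beside the difference (0.89 ± 0.17, edgeR adjusted p = 0.0007). Both ZT16 libraries with high immediate early genes and the one without them were above all ZT4 libraries. With replicate 2 as the lone ZT16 library, assumed to vary like the other groups, the difference was 0.77 ± 0.24 (adjusted p = 0.0848), and 467 of all genes were called in place of 2663. CPM ranges of Cdkn1b and Cdkn2b did not overlap between the times either, which 25.3% of all genes did not, but neither passed the test: Cdkn1b was at 44.6, 40.0 and 32.4 CPM in ZT16 libraries and 16.7, 26.7 and 29.6 CPM in ZT4 libraries (adjusted p = 0.191), and Cdkn2b differed by −1.37 ± 0.49 (adjusted p = 0.0576).

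Cdkn1a and Cdkn2d followed the immediate early genes within the uninjured ZT16 group. Cdkn1a was at 96.1 and 66.3 CPM in replicates 1 and 3 but 16 CPM in replicate 2, against 44.0, 22.8 and 15.1 CPM in ZT4 libraries. Cdkn2d was at 91.7 and 89.3 CPM in replicates 1 and 3 and 37.4 CPM in replicate 2, against 29.5, 28.2 and 61.7 CPM in ZT4 libraries. In the ZT4 group, replicate 3 was highest in Cdkn2d and lowest in Cdkn1a. Its immediate early sum was the lowest of that group, at 1067 CPM against 2380 and 3691 CPM. The differences between times were 1.11 ± 0.43 for Cdkn1a (edgeR adjusted p = 0.087) and 0.88 ± 0.33 for Cdkn2d (adjusted p = 0.0729). Without ZT16 replicates 1 and 3 these differences were −0.80 ± 0.40 and −0.10 ± 0.42.

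Among the 16 E2F, DP and DREAM complex genes, partners of the Rb family, Tfdp2 (1.82 ± 0.22, edgeR adjusted p = 1.26e-05), Lin9 (1.24 ± 0.21, adjusted p = 0.000249) and E2f3 (0.79 ± 0.24, adjusted p = 0.0229) were the 3 higher at ZT16 in uninjured muscle, and none was lower. In that comparison 17.7% of all genes were called (8.53% higher and 9.12% lower). Without ZT16 replicates 1 and 3, Tfdp2 alone passed (1.62 ± 0.29, adjusted p = 0.0042). Of the cyclin and CDK genes, Ccne2 was higher and Ccnd1 and Cdk4 were lower at ZT16, with Ccnd1 at −1.11 ± 0.23 (adjusted p = 0.00189) and at −1.63 ± 0.33 (adjusted p = 0.0113) without the same 2 libraries. Of the 18 p53 network genes, 7 were higher at ZT16 in uninjured muscle and none was lower, against 1 higher without replicates 1 and 3. The p27 regulators Foxo3 (1.14 ± 0.31, adjusted p = 0.0121) and Skp2 (−0.74 ± 0.22, adjusted p = 0.0249) also differed, and without replicates 1 and 3 they were at 1.10 ± 0.45 (adjusted p = 0.204) and −1.31 ± 0.26 (adjusted p = 0.00686).

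After injury none of the 10 genes passed between the times, at day 1 or day 3, and edgeR called 0 of all 15084 genes at either day (920 and 1003 at an unadjusted p under 0.05), which is 0.0%. At day 1 DESeq2 called 26 and limma with voom 46 of all genes. Rbl2 was at 28.1, 30.4, 26.9 and 17.6 CPM in day 1 ZT16 libraries and 25.1, 23.8, 27.1 and 22.5 CPM in day 1 ZT4 libraries, which overlapped (0.07 ± 0.15, adjusted p = 0.998). None of the 10 genes had separate ranges between the times at day 1, where 4.33% of all genes did. At day 3 Rbl2 was at 29.1, 22.6, 29.0 and 36.1 CPM in ZT16 libraries, against 39.2, 40.2, 30.9 and 43.6 CPM in ZT4 libraries (−0.40 ± 0.15, adjusted p = 0.692). Cdkn1a did not overlap between the times at day 3 (967.1 to 1173 CPM at ZT16 and 897.7 to 951.9 CPM at ZT4), as 6.11% of all genes did not, with a difference of 0.18 ± 0.35 (adjusted p = 0.976). The test of the difference itself found the ZT16 effect on Rbl2 lower at day 1 than in uninjured muscle (−0.82 ± 0.23, adjusted p = 0.0277) and lower at day 3 (−1.29 ± 0.23, adjusted p = 0.000574), where 7.46% of all genes were called at day 1 (3.93% higher and 3.53% lower) and 12.8% at day 3 (6.8% higher and 5.97% lower). The other 9 genes did not pass in either. Because ZT is given with the injury and no hour of collection is known, ZT may not mean the same in uninjured and injured muscle. Without uninjured ZT16 replicates 1 and 3 the call for Rbl2 was lost at day 1 (−0.71 ± 0.30, adjusted p = 0.294) and held at day 3 (−1.18 ± 0.29, adjusted p = 0.0289).

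The genes whose log2 CPM followed each of the 10 most closely over the 22 libraries were sought among 9393 tested genes with a mean of at least 10 CPM. These correlations describe libraries that share states and carry no test. Opa1, a mitochondrial fusion gene (Pearson r = 0.979), and Dlat (0.976) were most like Cdkn1a. Mymk (0.978) and Pnmal2 (0.984) were most like Cdkn1c, and Mymk (0.941) and Ppfia4 (0.941) most like Rb1. Mthfd2, an enzyme of mitochondrial one-carbon metabolism (0.989), and Jpt2 (0.990) were most like Rbl1. Zfyve1 (0.974) and Pnpla8 (0.967) were most like Rbl2, and Retreg3 (0.939) and Eva1b (0.937) most like Cdkn1b. Ddrgk1 (0.926) was among those closest to Cdkn2c. Likeness was weaker for Cdkn2d, with Acsl3 (0.864) and Atg101 (0.853), than for the others. The closest to Cdkn2b were Mov10 (0.941) and Adprh (0.937), and to the low Cdkn2a Cit (0.930) and Stk17b (0.923).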

How the data were processed

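The authors deposited, for each of 22 libraries, a table of 103732 transcripts made from their aligned reads. Its expected counts, per the file headers, are reads apportioned between overlapping transcripts and are not normalized. Its TPM values, per the file headers, divide these by transcript length and scale each library to a common total, as the authors deposited them. The submitters' processing notes name Trimmomatic 0.33, STAR 2.5.2, RSEM 1.3.3, DESeq2 and mm10; their roles, the annotation release and strandedness are not given in the sources used here. Expected counts were summed per gene and rounded, and 42546 of 43430 genes matched a symbol in GENCODE M21 (GRCm38). Genes with low counts were left out (edgeR filterByExpr, minimum count 10 and minimum total 15): 15084 genes were tested and 28346 were not. One edgeR 4.0.16 quasi-likelihood fit (R 4.3.3) over the 6 groups of state and time used TMM factors of 0.942 to 1.09 and gave a common dispersion of 0.0444. P-values were adjusted by Benjamini-Hochberg over all genes tested, and the threshold was 0.05. The SE of a log2 fold change is its size divided by the square root of F. CPM are TMM-scaled. Levels per length are the authors' TPM summed over protein-coding transcripts.

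Alternatives were DESeq2 1.42.0, limma 3.58.1 with voom, other size factors and filters, each library left out, both doubted libraries left out, each time alone and the replicate number as a block. Protein-coding transcripts alone and all tests of transcript shares (exact permutation, scipy 1.17.1) were added after seeing the data. Python 3.11.15, numpy 2.4.6, pandas 2.3.3 and matplotlib 3.10.9 were used, and the fit was tested on simulated data. All 10 genes are named, with transcripts of at least 10% of the gene, up to 4 genes with the smallest p per pathway list and comparison, regulators needed for a role, and the 2 genes most like each, of which 1 is not reported here. The genes and the 8 pathway and 9 marker lists were chosen with earlier results of these data known.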

Additional observations from a re-analysis of the deposited data

Results flagged for a closer look

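Rbl2 differed in its time effect between states by a test of the difference itself, the one gene of the 10 to do so. The log2 difference of ZT16 and ZT4 was lower at day 1 than in uninjured muscle by −0.82 ± 0.23 (edgeR adjusted p = 0.0277) and lower at day 3 than in uninjured muscle by −1.29 ± 0.23 (adjusted p = 0.000574). Within the states, Rbl2 differed by 0.07 ± 0.15 at day 1, −0.40 ± 0.15 at day 3 and 0.89 ± 0.17 in uninjured muscle. As the hour of collection is not known, ZT may not mean the same in uninjured and injured muscle. Without uninjured ZT16 replicates 1 and 3, in which immediate early genes were high, the differences were −0.71 ± 0.30 at day 1 (adjusted p = 0.294) and −1.18 ± 0.29 at day 3 (adjusted p = 0.0289). The part of those libraries' state in the result at day 1 was not tested. Of 40 groups of 4 libraries checked over the 10 genes, all from injured muscle, none held a library that stood apart by Dixon's criterion. The uninjured groups, with 3 libraries each, were not checked, so this does not bear on the doubted libraries.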

How the results depend on the processing

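The 10 genes gave 28 called results, and over 918 alternatives none reversed, 34 lost the call and 20 results never lost it. The losses not given above were those of Rbl2 for the time effect at day 1 against uninjured muscle, with an adjusted p of 0.0541 to 0.294 in 6 alternatives, among them single omissions of uninjured ZT16 replicates 1 and 3, uninjured ZT4 replicate 2 and day 1 ZT4 replicate 3. Calls were gained in 33 alternatives. In uninjured ZT16 against ZT4, where Rbl2 alone was called, Cdkn2b gained a call in 6 alternatives, Cdkn2d in 6, Cdkn1a in 4 and Cdkn1c in 1. Cdkn2d gained one in 5 at day 3 and in 2 at day 1 against uninjured muscle, and Rbl1 in 1 at day 3 against day 1. In the time effects, Cdkn1a gained one in 2 at each day, Cdkn1c in 1 at each day, and Cdkn2b and Cdkn2d in 1 each at day 3.

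Over all genes, uninjured ZT16 against ZT4 gave 2663 calls, 577 in a fit of those groups alone, 467 without both doubted libraries, and 1768 to 2898 with 1 library left out. Day 1 ZT16 against ZT4 gave 0 calls, 270 with no filter on low counts, 26 with DESeq2, 46 with limma voom, 2 in a fit of those groups alone and 0 to 10 with 1 library left out. Day 3 ZT16 against ZT4 gave 0 calls, 127 with no filter, 1 in those groups alone and 0 to 1 with 1 library left out. The time effect at day 1 against uninjured gave 1125 calls, 737 with limma voom, 514 in those groups alone, 134 without both doubted libraries and 648 to 1596 with 1 left out. The time effect at day 3 against uninjured gave 1927 calls, 473 without both doubted libraries and 1309 to 2369 with 1 left out. The cause was not tested, beyond fewer libraries in the smaller fits.

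Replicate numbers were not treated as pairs, and the labels do not say whether they pair the samples. Same-numbered libraries of different groups correlated in their deviations from group means at −0.096 to 0.149 over 51 pairs. The median was 0.011, against −0.009 for other pairs, and 8 of 22 libraries correlated best with their own number. Such correlations cannot exclude a shared mouse, day or batch. With the replicate number as a block, all genes gave 11102 calls for day 1 against uninjured, 11419 for day 3 against uninjured, 8307 for day 3 against day 1, 2603 for uninjured ZT16 against ZT4, 0 at either injured day, and 1107 and 1952 for the time effects at day 1 and day 3 against uninjured. The block changed 1 call of the 10 genes, that of Cdkn2d at day 3 against uninjured muscle (0.48, adjusted p = 0.0444). Depth limits Cdkn2a, whose p16 transcript had at most 3.77 estimated counts in a library.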
